A study of Mus musculus with 6 samples.

Results

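The 8 genes described here, Sun5, Spag4, Sun3, Spata6, Pmfbp1, Hook1, Oaz3 and Tsga10, encode proteins that hold the sperm head to its tail or shape the joint between them, and their RNA was measured in the testes of 3 mouse strains. They were found on the array by symbol, as every probe set that the platform annotation ties to one of these symbols alone, and 18 of the 45101 probe sets did so. They stand beside 18193 genes that have a probe set of their own. The set was chosen by gene function, but with the intensities of Sun5 in the 3 strains in view, so the values of all 8 genes are given as a description with no p-value. How many of them the fit over all genes called is given beside the share of all genes called, and again under other settings, and supports nothing. Of the 8, 4 had several probe sets (Spata6, Hook1, Oaz3 and Tsga10), and 15 of the 18 probe sets passed a filter on dim signal, at least 2 arrays above the 40th percentile of their own array. The other 3, 1 of Spata6 and 2 of Oaz3, stayed below 23 units on every array.

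Testes came from inbred mice of 8 weeks, for which the labels give no treatment. The groups were C57BL/6, AKR/N and MRL/MpJ (the +/+ line, without the lymphoproliferation mutation that the related MRL-lpr mouse carries), with 2 mice and 2 arrays each. Total RNA was hybridised to an oligonucleotide array, on which a probe set is a group of short probes for 1 transcript. Values are intensities in array units on a linear scale, set by the authors to a common mean on every array. The 40th percentile of an array, on which the filter rests, was 17.8 to 20.8 units. A probe set's brightness also depends on its probes, so levels are compared between strains and never between genes. Whether sequence differences between the strains change how a probe binds was not tested, and Sun5 rests on 1 probe set. Strain means are given ± SD (n = 2 mice), and differences are those of log2(intensity + 16) with their standard error (SE), which understate the change of dim genes. Precision is limited by the few arrays, and 1 estimate of the spread served all 3 strains.

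As background, a sperm tail grows from a centriole that docks in a pit of the nuclear envelope at the back of the spermatid head. A head to tail coupling apparatus, made of the basal plate on the nucleus and the capitulum and segmented columns of the neck, fastens it there. SUN proteins cross the inner nuclear membrane and grip KASH proteins of the outer membrane, so that the envelope is tied to the cytoskeleton. The manchette, a skirt of microtubules around the lengthening nucleus, shapes the head and carries cargo to the neck. When SUN5, SPATA6 or PMFBP1 is missing, mice make sperm whose heads and tails come apart, and mutations of SUN5 and PMFBP1 are known from infertile men whose sperm lack heads.

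RefSeq promoter windows of the mouse assembly GRCm38.p6 were matched by symbol for 6 of the 8 genes, in 10 windows that run from 250 bases before to 50 bases after a transcription start. The windows of the 3 SUN genes among the 8 are printed because the gene with the largest strain difference is one of them and its nearest relatives are the others. They are the reference sequence of the C57BL/6J genome and hold no AKR/N or MRL/MpJ allele. Capitals mark a match to the cyclic AMP response element (CRE), TGACGTCA, or to its core TGACG, on either strand. The CRE is the site of CREM, the factor known to switch on many spermatid genes. The Sun5 window lies at chr2:153871035-153871334 on the minus strand, the Spag4 window at chr2:156064963-156065262 on the plus strand and the Sun3 window at chr11:9048942-9049241 on the minus strand; Sun3 has a further window, not printed.
Sun5: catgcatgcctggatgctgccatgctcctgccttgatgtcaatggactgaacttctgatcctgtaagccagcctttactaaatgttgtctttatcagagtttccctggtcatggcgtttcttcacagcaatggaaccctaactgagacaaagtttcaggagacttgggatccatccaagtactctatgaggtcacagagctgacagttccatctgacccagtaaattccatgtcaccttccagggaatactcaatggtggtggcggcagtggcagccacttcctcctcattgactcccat
Spag4: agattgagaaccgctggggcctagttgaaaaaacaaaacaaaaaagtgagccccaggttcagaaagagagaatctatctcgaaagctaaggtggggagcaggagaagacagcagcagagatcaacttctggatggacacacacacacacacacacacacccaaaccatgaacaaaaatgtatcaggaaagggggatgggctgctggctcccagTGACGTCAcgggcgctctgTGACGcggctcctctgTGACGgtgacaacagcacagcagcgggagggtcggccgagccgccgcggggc
Sun3: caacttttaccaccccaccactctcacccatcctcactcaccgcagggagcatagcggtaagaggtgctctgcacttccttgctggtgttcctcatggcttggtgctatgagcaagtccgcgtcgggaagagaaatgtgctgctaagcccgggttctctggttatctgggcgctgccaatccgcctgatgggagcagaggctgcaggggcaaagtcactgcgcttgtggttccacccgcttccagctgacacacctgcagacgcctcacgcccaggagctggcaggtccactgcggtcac

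The Spag4 window held 1 CRE, which began 37 bases before the start, and 4 matches to the core, at 37, 34, 18 and 2 bases before it. The first pair of cores lies within the CRE, which reads the same on both strands. The windows of Sun5 and both windows of Sun3 held neither motif. Among the other windows, 1 of Spata6 held a single core, at 131 bases before the start. For comparison, 1.79% of all 32851 mouse windows of this length held the CRE and 20.8% the core. The core of the X-box, GTTGCC, bound by RFX factors of ciliated cells, was in none of the 10 windows and in 12.5% of all windows. A match is a run of letters and was not tested as a binding site, and a window without one says nothing about the factor.

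Sun5, whose protein anchors the coupling apparatus in the nuclear envelope, was lower in MRL/MpJ than in both other strains. Its single probe set (1429912_at) read 896 and 840.1 units in C57BL/6, 894 and 889 units in AKR/N, and 481 and 518 units in MRL/MpJ. Both MRL/MpJ testes lay below all 4 others, while the AKR/N values fell inside the range of C57BL/6. The strain means were 868 ± 39.4, 891 ± 3.79 and 499 ± 26.1 units. On the linear scale MRL/MpJ therefore differed from C57BL/6 by -42.5% and from AKR/N by -44.0%. The log2 differences were -0.78 and -0.82 (SE 0.0761), and that of AKR/N against C57BL/6 was 0.04. Of the 14477 genes tested, 2.70% lay at or below the Sun5 difference between MRL/MpJ and C57BL/6, and 1.41% lay at or below it between MRL/MpJ and AKR/N. The set was chosen with these values in view, so these shares only describe where Sun5 lies.

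Spag4, also called Sun4, encodes a spermatid SUN protein of the envelope facing the manchette. Its probe set (1452407_at) read 1835 and 1827 units in C57BL/6, 1642 and 1598 units in AKR/N, and 1397 and 1556 units in MRL/MpJ. The 3 strains did not overlap, with C57BL/6 highest and MRL/MpJ lowest, and the 2 MRL/MpJ mice stood farther apart than those of the other strains. MRL/MpJ differed by -0.31 from C57BL/6 and by -0.13 from AKR/N, and AKR/N by -0.18 from C57BL/6 (SE 0.0697). Without MRL/MpJ replicate 1 the difference between MRL/MpJ and AKR/N was -0.06, and without MRL/MpJ replicate 2 it was -0.21.

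Sun3, another SUN protein of spermatids that lies beside the manchette, read 616 and 512 units in C57BL/6, 569 and 553 units in AKR/N, and 494 and 535 units in MRL/MpJ (1439801_at). The C57BL/6 pair enclosed both AKR/N values and 1 of the MRL/MpJ values, so only MRL/MpJ and AKR/N did not overlap. The differences were -0.12 for MRL/MpJ against either strain and -0.00 for AKR/N against C57BL/6 (SE 0.0971). Without C57BL/6 replicate 1 the difference between MRL/MpJ and C57BL/6 was 0.0070, and without C57BL/6 replicate 2 it was -0.25. Of the 3 SUN genes, Sun5 had the widest range over the 6 arrays, 0.88 on the log2 scale against 0.39 for Spag4 and 0.31 for Sun3.

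**Figure D1:**
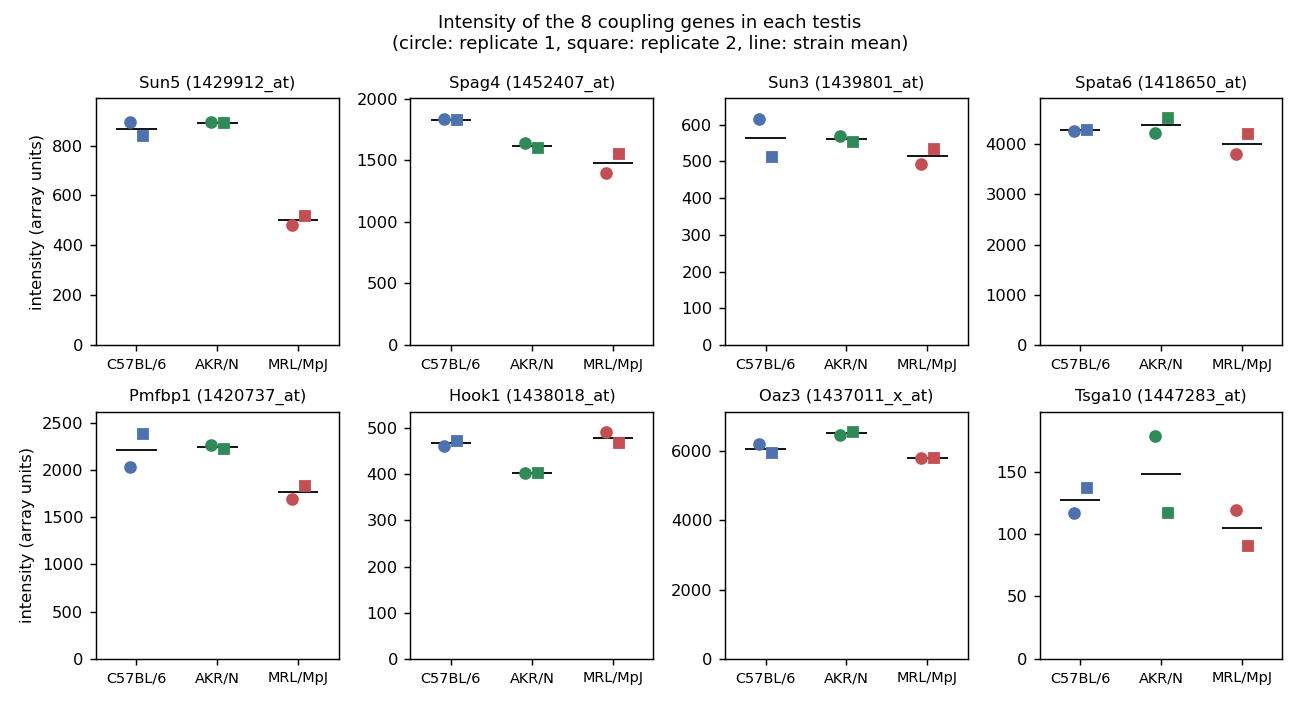
Intensity in array units (vertical axis, from 0, with its own scale in each panel) of the brightest probe set of each of the 8 genes in the 2 testes of each strain; circles are replicate 1, squares replicate 2 and lines strain means. The MRL/MpJ points of Sun5, at 481 and 518 units, lie apart from the other 4, while most panels show strain means close to one another.

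Spata6 and Pmfbp1 encode proteins of the coupling apparatus itself, and PMFBP1 binds both SUN5 and SPATA6. Pmfbp1 (1420737_at) read 2031 and 2386 units in C57BL/6, 2268 and 2221 units in AKR/N, and 1693 and 1834 units in MRL/MpJ. Both MRL/MpJ values lay below the other 4, as for Sun5, and the C57BL/6 pair enclosed that of AKR/N. MRL/MpJ differed by -0.32 from C57BL/6 and by -0.35 from AKR/N (SE 0.0812), or by -20.2% and -21.4% on the linear scale. AKR/N differed from C57BL/6 by 0.03. Without C57BL/6 replicate 1 the first of these was -0.43, and without C57BL/6 replicate 2 it was -0.20.

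Spata6, needed to build the segmented columns of the neck, gave an answer that depended on the probe set. Its brightest (1418650_at) read 4263 and 4286 units in C57BL/6, 4229 and 4513 units in AKR/N, and 3796 and 4199 units in MRL/MpJ, a range of 0.25 on the log2 scale. MRL/MpJ lay just below both other strains there, by -0.10 and -0.13 (SE 0.0652). The next (1418651_at) read 831 and 826 units in C57BL/6, 659 and 630.2 units in AKR/N, and 645 and 609.9 units in MRL/MpJ. On that probe set C57BL/6 stood above both other strains, with differences of -0.39 for MRL/MpJ and -0.36 for AKR/N (SE 0.0739), while MRL/MpJ and AKR/N overlapped. A dimmer probe set (1438023_at) spread from 61.4 to 109.8 units within C57BL/6 alone. The 2 brighter probe sets thus placed AKR/N with different strains, and which transcripts each one reads was not tested.

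Hook1 links the manchette to its cargo, and its loss in the azh mouse misshapes sperm heads and lets tails detach. Its brighter probe set (1438018_at) read 462 and 473 units in C57BL/6, 404 and 403 units in AKR/N, and 491 and 468 units in MRL/MpJ. AKR/N lay below both other strains, by -0.20 against C57BL/6 (SE 0.0795), and MRL/MpJ above AKR/N by 0.24. The second probe set (1439173_at) gave -0.08 and 0.18 (SE 0.0978), the same directions, but on it AKR/N and C57BL/6 overlapped. Hook1 was the only one of the 8 genes whose MRL/MpJ arrays were both above those of AKR/N.

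Oaz3, a testis antizyme that curbs polyamine synthesis in spermatids and whose loss separates heads from tails, was the gene with the smallest range. Its brightest probe set (1437011_x_at) read 6192 and 5939 units in C57BL/6, 6453 and 6559 units in AKR/N, and 5789 and 5806 units in MRL/MpJ. The strains did not overlap, with AKR/N highest, yet the widest difference, between MRL/MpJ and AKR/N, was -0.17 (SE 0.0529). A second bright probe set (1437010_a_at) read 4449.6 and 4212 units in C57BL/6, 4986 and 4928 units in AKR/N, and 4453 and 4249 units in MRL/MpJ, with AKR/N again highest and the other strains overlapping. The difference of MRL/MpJ against C57BL/6 on the brightest probe set was -0.06, and after quantile normalization it was 0.052. The other 4 probe sets of Oaz3 were dim, at means between 4.17 and 36.7 units.

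Tsga10, a protein of the centrosome and tail sheath, gave a dim signal that varied between mice. Its brighter probe set (1447283_at) read 117 and 137 units in C57BL/6, 179 and 117 units in AKR/N, and 119 and 90.4 units in MRL/MpJ. The mice of a strain differed as much as the strains, and no pair of strains was separate. The differences of MRL/MpJ, -0.25 against C57BL/6 and -0.42 against AKR/N (SE 0.186), turned to 0.25 and 0.20 on the second probe set (1436045_at), which lay between 27.6 and 53.2 units.

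Counted together, 3 of the 8 genes were called lower in MRL/MpJ than in C57BL/6 at a limma adjusted p under 0.05 (Sun5, Spag4 and Pmfbp1) and 0 higher, where 6.11% of all 14477 genes were called lower and 6.09% higher. The counts rest on the brightest probe set of each gene; the second one of Spata6 (1418651_at), not counted, was called lower in both MRL/MpJ and AKR/N against C57BL/6. In AKR/N against C57BL/6, 0 of the 8 were called, against 6.38% of all genes called higher and 5.49% lower. In MRL/MpJ against AKR/N, 2 were called lower (Sun5 and Pmfbp1) and 0 higher, against 5.06% and 3.67% of all genes. The arrays of the strains compared did not overlap for 5, 3 and 7 of the 8 genes, and for 55.6%, 54.7% and 54.6% of all genes. The medians of the 8 differences were -0.19, 0.03 and -0.15, where those of all genes were 0.01, 0.01 and 0.01. Since the set was chosen with these intensities known, nothing is read from these counts, and the comparisons share arrays. Without the variance trend, C57BL/6 replicate 2 or MRL/MpJ replicate 1, Sun5 alone was called in MRL/MpJ against C57BL/6. Against AKR/N it was called alone whenever 1 of the 4 arrays compared was left out.

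**Figure D2:**
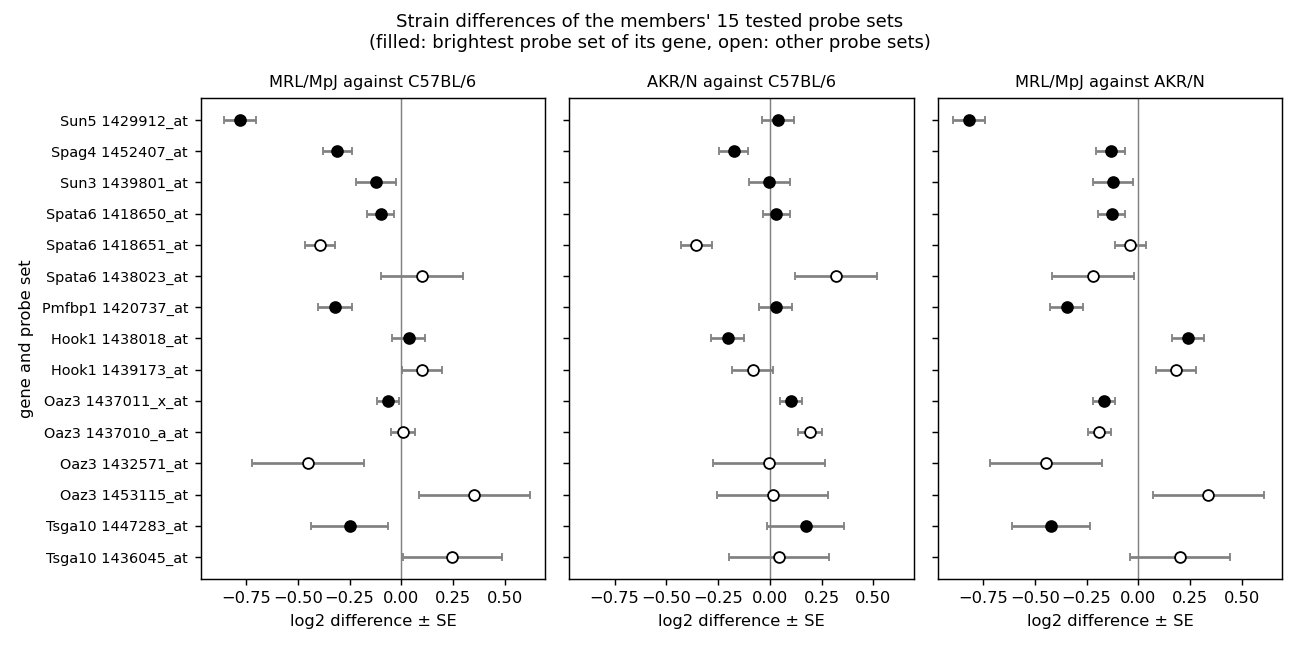
Difference of log2(intensity + 16) between strains (horizontal axis) for the 15 tested probe sets of the 8 genes, with bars of 1 SE; filled points are the brightest probe set of a gene and open points the others. Sun5 lies farthest left in both panels that involve MRL/MpJ, at -0.78 and -0.82, and the open and filled points of Spata6, Oaz3 and Tsga10 part in places.

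A whole testis holds many cell types, and in such bulk RNA fewer cells of a type and less RNA per cell cannot be told apart. The tissue label was borne out by protamine 1 (Prm1), which packs sperm DNA and read 7370.0 to 8906 units over the 6 arrays. Markers of round spermatids, the cells in which several of the 8 genes come on, moved in MRL/MpJ as well. Of 17 tested, 6 were called lower and 0 higher against C57BL/6, where 6.11% and 6.09% of all genes were. Against AKR/N 8 were called lower and 0 higher, where 5.06% and 3.67% of all genes were. The medians of the 17 were -0.26 and -0.25. Their summed intensity was 31251 and 29745 units in C57BL/6, 30921 and 31490 units in AKR/N, and 25553 and 26679.5 units in MRL/MpJ. None of the 17 was near 0, the lowest being Spam1 at 346.5 units or more on every array. Acrv1, an acrosome protein, read 1671 and 1643 units in MRL/MpJ against 2267 and 1893 units in C57BL/6.

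Of 19 elongating spermatid markers 4 were called lower in MRL/MpJ and 0 higher against either strain, with medians of -0.14 and -0.15, and in AKR/N against C57BL/6 1 was called each way. Their sums ran from 82946 to 92315 units in C57BL/6 and AKR/N and were 75930.1 and 82905 units in MRL/MpJ. Spermatocyte markers had 3 called higher and 3 lower of 15 in MRL/MpJ against C57BL/6, and 7 higher against AKR/N, where their median was 0.31. Among 9 Leydig cell markers 5 were called higher in MRL/MpJ and 4 in AKR/N against C57BL/6. Of all genes, 6.38% were called higher and 5.49% lower in AKR/N against C57BL/6, and the shares for MRL/MpJ are those above. The part of the marker shifts in the values of Sun5, Pmfbp1 and Spag4 was not tested. The 2 tested markers of epididymis summed to 91.6 and 90.4 units in C57BL/6 and to 25.9 and 27.7 units in MRL/MpJ, and those of AKR/N to 123 and 17.4 units. Most of this was Rnase10 in C57BL/6 (68.8 and 78.0 units) and Defb42 in AKR/N replicate 1 (111 units). The 5 adipose markers summed to 302 and 275 units in C57BL/6, 796 and 501 in AKR/N, and 481 and 433 in MRL/MpJ. Those of blood, 2 markers, summed to 104 and 92.4, 126 and 124, and 129 and 134 units. Whether other tissue was present was not tested.

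Around these 8 genes, 4 lists of other genes of the pathway were tested, with 130 of 146 genes measured above the filter. In MRL/MpJ against C57BL/6, 21 of the 130 fell and 6 rose, or 20.8% called where 12.2% of all genes were. The count was 15 without C57BL/6 replicate 1, 16 without C57BL/6 replicate 2, 11 and 10 without MRL/MpJ replicates 1 and 2, and 3 without the variance trend. In AKR/N against C57BL/6, 11 fell and 8 rose (14.6% against 11.9%), and the count of 19 was 10 without C57BL/6 replicate 2, 10 and 9 without AKR/N replicates 1 and 2, and 4 without the variance trend. In MRL/MpJ against AKR/N, 15 fell and 7 rose (16.9% against 8.74%), and the count of 22 was 9 and 6 without AKR/N replicates 1 and 2, 11 and 8 without MRL/MpJ replicates 1 and 2, 12 without the filter and 1 without the variance trend. The medians were -0.07, -0.01 and -0.03. The strain pairs share arrays, so these are not independent counts.

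The first list holds the partners of the SUN proteins and other parts of the nuclear envelope, with 19 tested genes. In it 1 rose and 1 fell in MRL/MpJ against C57BL/6, 0 were called in AKR/N against C57BL/6 (6 were higher and 0 lower at an unadjusted limma p under 0.05), and 1 rose and 2 fell in MRL/MpJ against AKR/N. The first and last of these were 10.5% and 15.8% of the list, where 12.2% and 8.74% of all genes were called. Its medians were 0.05, 0.13 and -0.03. The broadly expressed relatives Sun1 and Sun2 had adjusted p of 0.783 and 0.184 in limma between MRL/MpJ and C57BL/6, with Sun1 at 616 ± 19.9 against 597 ± 24.5 units and Sun2 at 267 ± 13.1 against 219.8 ± 17.7 units. Lmnb2, a lamin of the nuclear lining, fell in MRL/MpJ by 0.46 against C57BL/6 (limma adjusted p = 0.0136) and by 0.37 against AKR/N (0.0476). Fam209, a partner of the acrosome anchor DPY19L2, fell by 0.67 against AKR/N (0.0268), Gmcl1 rose by 0.27 (0.0329), and Ankle2 rose by 0.36 against C57BL/6 (0.0323). These 4 and the SUN relatives were named after their values were seen. Against C57BL/6 Lmnb2 lost its call without C57BL/6 replicate 1 or MRL/MpJ replicate 2 or with its probe sets averaged, and against AKR/N Fam209 lost it without AKR/N replicate 1, MRL/MpJ replicate 2 or the filter. Ankle2, Gmcl1 and, against AKR/N, Lmnb2 lost it without any 1 of the arrays compared. This last call of Lmnb2 was also lost with averaged probe sets, a pseudocount of 1 or no filter. That of Gmcl1 was also lost with median centring, averaged probe sets or no filter. Ankle2 also lost its call with quantile normalization or averaged probe sets, and differed by 0.13 with the latter. The brightest gene of the list not called, Tor1aip1 of the inner membrane, differed by -0.13 between MRL/MpJ and C57BL/6 (adjusted p = 0.218).

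In the list of the neck, centriole and basal plate, 10 of 45 genes fell in MRL/MpJ against C57BL/6 and 1 rose, 4 fell and 5 rose in AKR/N, and 8 fell and 3 rose in MRL/MpJ against AKR/N. These were 24.4%, 20% and 24.4% of the list, where 12.2%, 11.9% and 8.74% of all genes were called. Ccdc38, a coiled-coil protein needed for the sperm tail, read 257 and 251 units in MRL/MpJ, 1457 and 1448 units in C57BL/6, and 1326 and 1191 units in AKR/N. Its log2 differences were -2.45 (SE 0.0769, limma adjusted p = 3.79e-08) and -2.24 (9.09e-08), and both were called under all 16 alternatives. Spatc1l, which keeps the head joined to the tail, fell to 1135 ± 130.1 from 1645 ± 29.7 units (-0.53, adjusted p = 0.0021, and 0.0767 without the variance trend). Cep63, which takes part in centriole duplication, fell in MRL/MpJ by 0.46 and in AKR/N by 0.81 against C57BL/6 (adjusted p = 0.00388 and 8.34e-05). With the mean of its probe sets both calls were lost, and the difference of AKR/N was -0.41. Tssk4, a testis kinase, and Fam161a, a centriole protein, fell by 0.53 and 0.48 in MRL/MpJ against AKR/N (0.00208 and 0.0027), the latter with no call once its probe sets were averaged. Dnah6, a dynein heavy chain, rose against C57BL/6 by 0.60 in AKR/N (0.00316) and by 0.50 in MRL/MpJ (0.00835). The MRL/MpJ call was lost without C57BL/6 replicate 2 or MRL/MpJ replicate 2. Nek2, a centrosome kinase, fell by 0.36 in AKR/N against C57BL/6 (0.00504), a call lost without AKR/N replicate 1. Odf1, an outer dense fibre protein whose loss also frees heads from tails, was the brightest not called: 5803 ± 525 units in MRL/MpJ, 6376 ± 224 units in C57BL/6 and 6093 ± 520.3 units in AKR/N.

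In the list of the manchette and its transport, 10 of 53 genes fell in MRL/MpJ against C57BL/6 and 2 rose, 7 fell and 1 rose in AKR/N, and 4 fell and 3 rose in MRL/MpJ against AKR/N. These were 22.6%, 15.1% and 13.2% of the list, where 12.2%, 11.9% and 8.74% of all genes were called. Stk36, a kinase of motile cilia, read 429 and 356 units in C57BL/6, 128 and 97.9 units in AKR/N, and 104 and 103 units in MRL/MpJ. It fell in both strains against C57BL/6, with differences of -1.76 in MRL/MpJ and -1.67 in AKR/N (limma adjusted p = 2.17e-05 and 3.16e-05). Averaged over its probe sets, of which the dimmer one went the opposite way in MRL/MpJ, they were -0.86 and -0.85. Kif27, a kinesin, fell in MRL/MpJ to 355 ± 77.3 units from 729.7 ± 113.6 in C57BL/6 and 658 ± 57.8 in AKR/N, by 1.02 and 0.88 (0.00126 and 0.00472). The second call was lost without AKR/N replicate 2. Fsip1, which binds the fibrous sheath of the tail, fell by 0.45 in MRL/MpJ and 0.58 in AKR/N against C57BL/6 (0.00392 and 0.000832). Ift27, a small GTPase of intraflagellar transport, fell in MRL/MpJ by 0.46 and 0.52 against C57BL/6 and AKR/N (0.00727 and 0.0052), and both calls were lost without MRL/MpJ replicate 2. Hook2, a relative of Hook1, fell against C57BL/6 in AKR/N by 0.48 (0.00338) and was also lower in MRL/MpJ, at -0.40 (0.00835). The MRL/MpJ call was lost without C57BL/6 replicate 2 or either MRL/MpJ replicate.

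Spag6l, of the axoneme's central pair, rose by 0.38 in MRL/MpJ against AKR/N (0.00738), a call lost without AKR/N replicate 1 or 2 or MRL/MpJ replicate 2. Cfap43 fell by 0.53 in AKR/N against C57BL/6 and rose by 0.48 in MRL/MpJ against AKR/N on its brightest probe set, while its other probe sets went the opposite way and the mean of all of them, the brightest included, gave 0.16 and -0.12. Meig1, a manchette protein, was the brightest not called, at 6095 ± 10.8 units in MRL/MpJ against 6726 ± 769.6 in C57BL/6.

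The last list holds the antizymes and polyamine enzymes that Oaz3 belongs with, of which 2 of 13 rose in MRL/MpJ and 2 rose in AKR/N against C57BL/6, with 0 lower, and 1 fell in MRL/MpJ against AKR/N. These were 15.4%, 15.4% and 7.69% of the list, where 12.2%, 11.9% and 8.74% of all genes were called. Arg2, a mitochondrial arginase that makes the polyamine precursor ornithine, was dim in C57BL/6 (18.7 and 16.2 units), higher in MRL/MpJ (92.6 and 111 units) and highest in AKR/N (180.1 and 205 units). Both C57BL/6 values lay below the 40th percentile of their arrays, so Arg2 passed the filter only through the other strains, and the size of its rise against C57BL/6 is not given. Arg2 is counted among the rises of both strains, and its calls against C57BL/6 support nothing. It stood lower in MRL/MpJ than in AKR/N by -0.82 (limma adjusted p = 0.00824). That call was lost without AKR/N replicate 2 or MRL/MpJ replicate 1. The other rises, named after their values were seen, were of spermidine synthase, Srm, by 0.62 in MRL/MpJ (0.0125), and of ornithine decarboxylase, Odc1, by 0.29 in AKR/N (0.0173), or 0.46 with its probe sets averaged. Srm lost its call without C57BL/6 replicate 1 or either MRL/MpJ replicate, and Odc1 without C57BL/6 replicate 2 or AKR/N replicate 2. Ppp1cc, a phosphatase subunit, was the brightest not called, with differences between -0.04 and 0.0044. Of the called genes named in the 4 lists, Ccdc38, Stk36, and Fsip1 and Cep63 in AKR/N against C57BL/6 stayed called without the variance trend. The others did not, with Arg2 against C57BL/6 left aside because of the filter.

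**Figure D3:**
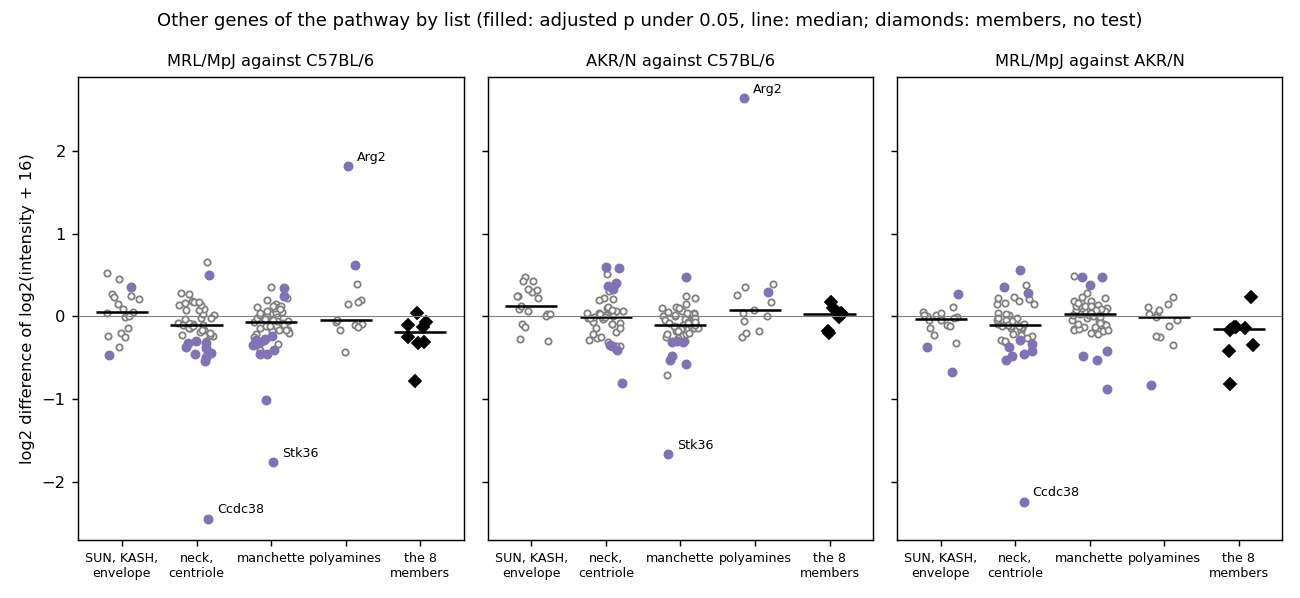
Difference of log2(intensity + 16) between strains (vertical axis) for each tested gene of the 4 pathway lists, 1 panel per strain pair; filled circles have an adjusted p under 0.05, bars are medians, and diamonds are the 8 coupling genes, shown with no test. Ccdc38 lies far outside its list in both panels with MRL/MpJ, and Stk36 and Arg2 do so in both panels against C57BL/6, while the medians of the 4 lists stay between -0.11 and 0.13. Arg2 passed the filter only through MRL/MpJ and AKR/N.

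The genes whose profile over the 6 arrays was most like that of Sun5 were sought among 7730 genes with a mean of 100 units or more, by the root mean square distance between log2 values, each centred on its own mean. The 5 closest were Flacc1 (0.0358), 9530057J20Rik (0.0403), Cldnd1 (0.0556), Agtr1a (0.061) and Msl2 (0.0615). Flacc1, named for its link to the flagellum, read 1017 and 976 units in C57BL/6, 1069.8 and 1022 units in AKR/N, and 538 and 619 units in MRL/MpJ. The 5 differed by -0.85 to -0.65 between MRL/MpJ and C57BL/6, as likeness to Sun5 required. The distances of the other coupling genes were 0.238 for Pmfbp1, 0.287 for Spag4, 0.315 for Tsga10, 0.322 for Sun3, 0.324 for Oaz3, 0.325 for Spata6 and 0.456 for Hook1. The 5 were picked as the closest of 7730 genes, so nothing is read from these larger distances.

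**Figure D4:**
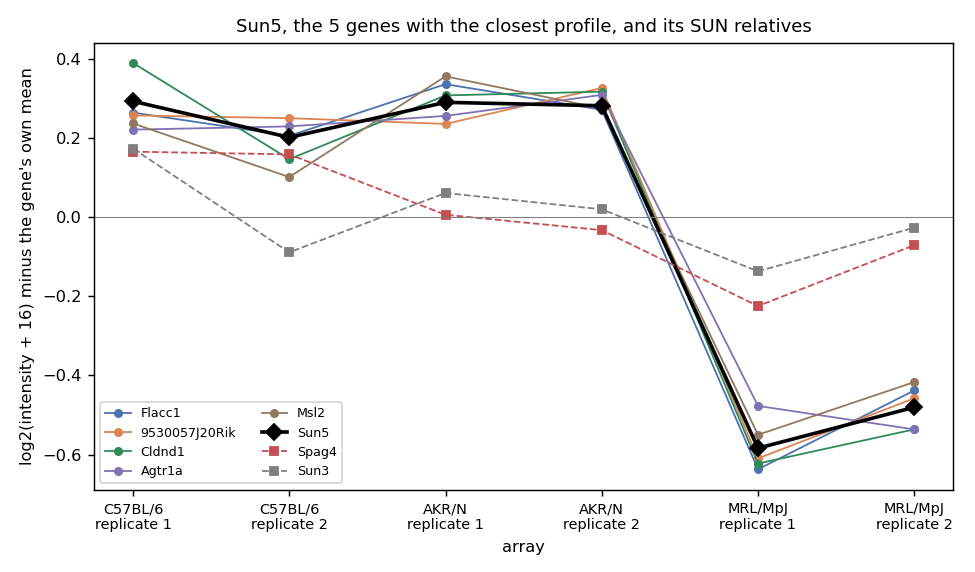
Log2(intensity + 16) minus the gene's own mean (vertical axis) on each of the 6 arrays for Sun5 (diamonds), the 5 genes of most similar profile (circles) and the SUN relatives Spag4 and Sun3 (squares); lines only join the points of a gene. Sun5 and its 5 likest genes drop together in MRL/MpJ, while Spag4 and Sun3 keep a narrow range of 0.39 and 0.31.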

How the data were processed

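The deposited intensity values are linear probe set values that the authors scaled to a common trimmed mean on each array, as the values show. Per the labels' protocols, Trizol RNA was made into biotin-labelled target by a one-cycle kit. What software summarised the probes is not given in the sources used here, nor are detection calls. Gene names come from the platform annotation, where 34945 probe sets had 1 symbol, 932 several and 9160 none.

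Intensities were used as log2(intensity + 16). After 64 control probe sets were left out, 29692 with at least 2 of 6 arrays above the 40th percentile of their array were tested. The 3 strain means were fitted with limma 3.58.1 in R 4.3.3 (eBayes with a trend on mean level), and p-values were Benjamini-Hochberg adjusted over all of them, called at 0.05. A gene stands for its tested probe set of highest mean. Arrays of the same number deviated together with correlations of 0.0425 to 0.0493, so they were not taken as pairs. Named genes of the pathway lists were the 8 called genes of smallest adjusted p in each comparison and the brightest gene of each list not called, with exceptions stated in the text. The calculation was tested on simulated data. The members, lists and tests were chosen with earlier results of these data known. Spread between arrays is spread between single mice, per the series design.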

Additional observations from a re-analysis of the deposited data

How the results depend on the processing

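The Sun5 differences kept their direction within the replicate spread under all 16 alternatives for MRL/MpJ, at -0.83 to -0.73 against C57BL/6 and -0.87 to -0.76 against AKR/N, and lay between -0.01 and 0.08 for AKR/N against C57BL/6. Several settings could not move them: averaged probe sets, since Sun5 has 1, and the filters and the variance trend, which leave strain means unchanged. Nor could the replicate block, a fit of only the compared strains or leaving out an array of the third strain. Sun3 turned from -0.12 to 0.0070 without C57BL/6 replicate 1, and without C57BL/6 replicate 2 it was -0.25. Oaz3 turned from -0.06 to 0.052 after quantile normalization, both in MRL/MpJ against C57BL/6. Of the coupling genes, Sun5 alone was called (1 gene) without the variance trend in both comparisons of MRL/MpJ. There 635 of all 14477 genes were called against C57BL/6 and 231 against AKR/N. Without the filter Sun5 was also called alone against AKR/N, with 836 of all genes called. The counts of members called under alternatives were added after the data were seen. The set was chosen with these intensities in view, so nothing is read from them. Pathway calls numbered 3, 4 and 1 without the variance trend (the cause was not tested) and 12 without the filter in MRL/MpJ against AKR/N. With single arrays left out they ran from 10 to 23, 9 to 16 and 6 to 23, where the lone array of a strain is assumed to vary like the others. The replicate block gave 33, 24 and 32 pathway calls and 3, 0 and 3 coupling genes, Oaz3 being added, though the numbers do not pair the mice. Scaling moved the median of all genes by under 0.1. With 2 arrays a strain and no detection calls, dim probe sets limit what can be told.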

Other observations

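Among the 10 protein-coding genes on each side of Sun5 in RefSeq gene order, looked up after the Sun5 values were seen, Bpifb3 stood 3 genes away and was called lower in MRL/MpJ, at 3.56 ± 0.71 units against 53.6 ± 9.39 in C57BL/6 and 55.8 ± 5.53 in AKR/N. Its MRL/MpJ values lay below the 40th percentile of their arrays, so it passed the filter only through the other strains. Its calls therefore support nothing, and no size of the difference is given. Bpifa3, 7 genes away, was called higher in AKR/N than in C57BL/6 by 0.37 (limma adjusted p = 0.0413) and lower in MRL/MpJ than in AKR/N by -0.55 (0.00909). The other tested genes, Plagl2, Pofut1, Kif3b, Asxl1, Nol4l, Commd7, Dnmt3b, Mapre1, Bpifb2, Bpifa2, Bpifa5 and Bpifb1, were not called in any comparison. Of all genes, 6.11% were called lower in MRL/MpJ than in C57BL/6 and 5.06% lower than in AKR/N. In AKR/N 6.38% were called higher than in C57BL/6. Nothing about this stretch is read from so few calls.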
